A study of Mus musculus with 14 samples.

Results

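A set of 10 imprinted genes active in brain were followed across hippocampus RNA libraries from mice with and without a Kmt2d mutation and with and without an LSD1 inhibitor. They are Snrpn, Ndn, Ube3a, Peg3, Plagl1, Meg3, Rian, Mirg, Impact and Kcnk9. They were chosen by symbol, with no measured value in the rule, from 18735 genes that had a value in any library. Earlier results of these data were known when the set was chosen. All 10 had a value in all 14 libraries, so none was lost to the filter on low values, which 16580 genes passed.

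Of an imprinted gene, cells use mainly the copy from 1 parent. The choice is written as DNA methylation at a control region in the germ line, and it often covers a cluster of neighbouring genes. In brain such genes act in growth, feeding, maternal care and synaptic function, and several clusters hold long noncoding RNAs that are themselves imprinted. All mice here are of a single strain, so both parental copies have the same sequence and every value below is the sum over both.

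All mice were C57BL6, 30 days old, and either wild type (KMT2D+/+) or heterozygous for the mutant allele that the labels write as KMT2D+/bGeo. KMT2D methylates lysine 4 of histone H3, and LSD1, the product of Kdm1a, removes such methyl groups. Mice were given the LSD1 inhibitor TAK-418 at 1 mg/kg/day or its methylcellulose vehicle by gavage for 2 weeks from an age of 2 weeks, so vehicle and gavage are common to all groups. By group, 3 libraries came from wild types given vehicle, 3 from mutants given vehicle, 5 from TAK-418-treated wild types and 3 from TAK-418-treated mutants, and mice given vehicle are called untreated below. The replicate numbers used below only tell libraries of a group apart. The series text speaks of 3 to 4 mice in a group, while 5 libraries are labelled as wild type with TAK-418. No label says in so many words that each library is a separate animal, so p-values measure the spread between these libraries.

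The libraries held 33819 to 48428 assembled transcripts. Wild-type TAK-418 replicate 1 was the deepest, at 3.45 times the median relative depth, and the others lay between 0.716 and 1.21 times. Markers of hippocampal neurons were found in all libraries, 12 of 12, with a summed level of 2753 to 4005. Choroid plexus markers, 12 of 12 with a value, summed to 7259 in wild-type vehicle replicate 3 and 5864 in mutant vehicle replicate 1, against a median of 112, and this pair was also highest in the list of meninges and fibroblast markers, at 103 and 108 against a median of 46.7. Mutant vehicle replicate 3 (1106) and mutant TAK-418 replicate 1 (734) followed in choroid plexus markers, and both are among the 3 libraries with high Ndn values described below. The pair itself had low Ndn values, 2.57 and 2.80. The remaining library with high Ndn, mutant TAK-418 replicate 2, had a choroid plexus sum of at most 102.4, the median of its group. Of the choroid plexus marker Ttr alone it had 9.83, against 6369 and 4907 in the pair. Hypothalamus markers, 7 of 10 with a value, were also highest in the pair, at 24.0 and 26.7. They summed to 7.22 to 24.0 in wild-type vehicle, 11.7 to 26.7 in mutant vehicle, 0.694 to 16.6 in treated wild types and 0.228 to 1.24 in treated mutants, with Hcrt, Sim1 and Otp at 0. The part of these markers in the results was not tested beyond the fits without the pair given below. Of the libraries, 6 listed Xist and the other 8 listed Y-linked genes. Kmt2d itself was 13.99 ± 0.233 (SD, n = 3) in untreated wild types, 11.9 ± 2.14 (n = 3) in untreated mutants, 15.2 ± 2.37 (n = 5) in treated wild types and 12.4 ± 2.73 (n = 3) in treated mutants, so wild types and mutants overlapped. Over both treatments it was lower in mutants by a log2 difference of -0.26 ± 0.113 (SE), with an adjusted p of 0.850 in limma. Where the bGeo insertion lies relative to the assembled exons is not given in the sources used here, so this level does not settle whether the genotype labels hold.

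Values per library are called scaled abundance. This is the score that the assembler CLASS gave each assembled transcript, summed over a gene's transcripts and scaled between libraries. For genes with spliced transcripts only, it had a median of 1.26 times the FPKM (fragments per kilobase of transcript, scaled to sequencing depth) in the authors' deposited tables, so for such genes it behaves as a level per length. In bulk tissue, fewer cells of a type and less RNA per cell cannot be told apart.

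None of the 10 genes passed an adjusted p of 0.05 (limma, Benjamini-Hochberg over all 16580 genes) in any of 7 contrasts. For the mutation under vehicle, 0 of 10 were called, as were 0% of all genes. For the mutation under TAK-418 the count was again 0 of 10, against 0.0121% of all genes. For TAK-418 in mutants it was 0 of 10 against 0.00603%, and for TAK-418 in wild types 0 of 10 against 0%. The interaction of mutation and drug and the mutation over both treatments each gave 0 of 10, against 0.00603% of all genes in either case. TAK-418 over both genotypes gave 0 of 10 against 0.0121%. At an unadjusted p under 0.05, 1 member (Peg3) differed by genotype under vehicle, where 5.48% of all genes did, and 1 (Ndn) by genotype under TAK-418, where 4.95% did. Over both treatments, 2 members (Peg3 and Ndn) did so by genotype, against 5.85% of all genes. No member did so in the other 4 contrasts, in which 4.4% to 8.42% of all genes did. With call rates this low across the whole table, a count of 0 among 10 genes does not set these genes apart.

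Under vehicle, 4 were higher and 6 lower in mutants, with a median log2 difference of -0.03, beside 50.2% higher and a median of 0.00 over all genes. With TAK-418, 7 of 10 were higher in treated than in untreated mutants, with a median of 0.04 beside 51.1% higher and a median of 0.00 over all genes. In wild types 3 of 10 were higher with TAK-418, with a median of -0.04 beside 48.9% higher over all genes. By genotype under TAK-418, 5 of 10 were higher, and the interaction was above 0 for 7 of 10, beside 51.1% of all genes in either case. Libraries did not overlap for 3 of the members' simple contrasts. These were Peg3 and Rian, lower in mutants under vehicle, where 4.49% of all genes were lower without overlap and 4.41% higher, and Mirg, lower in mutants under TAK-418, where 2.41% were lower and 2.19% higher. No member separated its groups with TAK-418 in mutants, where 4.55% of all genes were higher and 3.64% lower without overlap. The same held with TAK-418 in wild types, where 3.94% were higher and 2.38% lower.

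**Figure D1:**
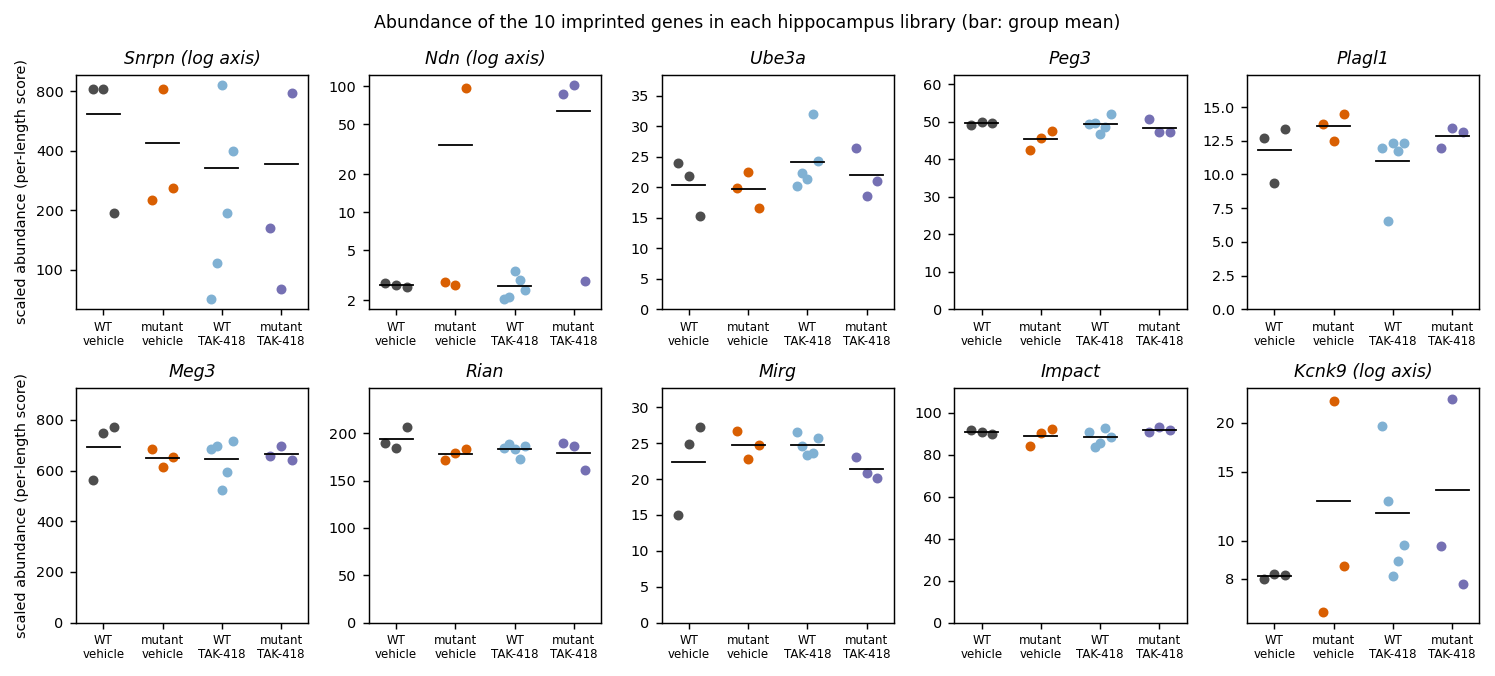
Scaled abundance (y axis, log for Snrpn, Ndn and Kcnk9 and from 0 for the others) of each gene in each library, by group (x axis); points are libraries and bars are group means. Impact, Peg3 and Rian spread little between libraries. Snrpn splits into separate levels within every group, Kcnk9 within every group but wild-type vehicle, and Ndn within the mutant groups only.

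**Figure D2:**
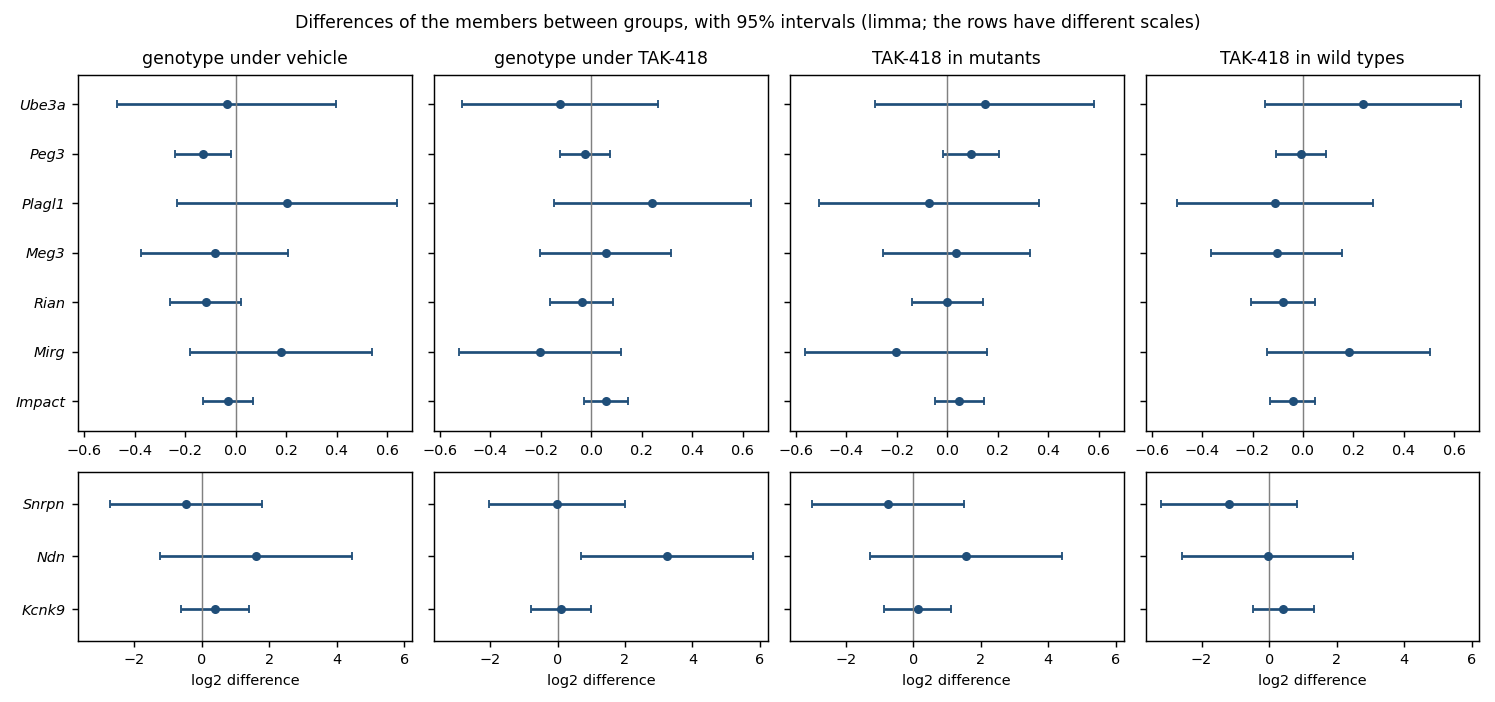
Log2 difference between groups (x axis, with 95% intervals from limma) for each gene (y axis) in the 4 simple contrasts; the upper and lower rows of panels have different scales. The intervals of Impact, Peg3 and Rian are the narrowest, and those of Snrpn and Ndn span several log2 units.

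By level the genes covered a wide range. In the authors' deposited tables the loci of Snrpn (652 to 725 FPKM over groups and tables) and Meg3 (674 to 701) stood highest and overlapped each other. The authors' deposited tables then placed Rian (315 to 336), Impact (63.3 to 67.9), Ndn (53.7 to 59.3) and Peg3 (31.2 to 34.4). Ube3a (26.4 to 31.7) and Mirg (26.9 to 30.6) overlapped in the authors' deposited tables, followed by Plagl1 (9.08 to 11.4) and the 2 loci of Kcnk9 (4.26 to 6.31). These are 1 pooled value per group, with no spread between mice. In the authors' deposited tables the loci of Snrpn and Rian join 5 gene symbols each, that of Meg3 4 and that of Mirg 12, so their FPKM are not of the named gene alone. In the libraries, Meg3 (525 to 773), Rian (161 to 207), Impact (83.9 to 93.3) and Peg3 (42.5 to 52.1) kept that order with no overlap. Mirg (14.97 to 27.3) and Ube3a (15.3 to 32.0) overlapped in part, and Plagl1 (6.58 to 14.5) overlapped with the spliced transcripts of Kcnk9 (6.04 to 12.6). The scaled abundances of Snrpn and Ndn are not placed in this order, since they moved with the assembled structure shown with each gene.

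The first cluster is the Prader-Willi and Angelman region of mouse chromosome 7, where Snrpn and Ndn are expressed from the paternal copy and Ube3a, in neurons, from the maternal copy. Snrpn (chr7:59982495-60140219, minus strand, GRCm38) encodes the spliceosome protein SmN, and the gene Snurf sits on the same transcript. Its main promoter lies in the region that controls the cluster. In all 14 libraries the main assembled Snrpn transcript began at the same base, chr7 position 60005136, which is 63 bases downstream of a RefSeq start. No main transcript began at the 3 RefSeq starts further upstream. The 300 bases around that start (chr7:60005150-60005449, minus strand, 250 before to 50 after the start, RefSeq on GRCm38.p6) are shown because this is the RefSeq start nearest to the base at which all libraries began, which itself lies just outside the window. Capitals mark the letters GCGGCA, the reverse complement of TGCCGC, which is the core motif of ZFP57, a zinc finger protein that keeps methylation at imprinted control regions.

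Snrpn: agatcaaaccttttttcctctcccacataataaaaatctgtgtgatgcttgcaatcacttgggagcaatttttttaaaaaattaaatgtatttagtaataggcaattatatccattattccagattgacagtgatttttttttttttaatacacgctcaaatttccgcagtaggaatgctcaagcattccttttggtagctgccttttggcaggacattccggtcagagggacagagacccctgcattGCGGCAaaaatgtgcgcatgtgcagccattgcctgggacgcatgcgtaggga

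The search covered both strands of the 12 RefSeq windows of 8 members (Impact and Kcnk9 had no entry). The motif was in 3 of the 12 windows, those of Snrpn, Plagl1 and Meg3 printed here, and in 11.6% of all 32851 windows of this length. The match is of letters only. In the Snrpn window it spans the start itself.

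Snrpn abundance ran from 71.4 to 857 between libraries, within as well as between groups. Wild-type vehicle libraries had 820, 816 and 193, and mutant vehicle libraries 224, 823 and 259. Wild-type TAK-418 libraries had 71.4, 108, 857, 193 and 400, and mutant TAK-418 libraries 162, 79.7 and 785. Each group held at least 1 library near 800 and at least 1 under 300. The 3' end of the assembled transcript moved with these values. In the libraries near 800 the main transcript was 1277 to 1285 bases long, and in the lowest ones it ran on for up to 12921 bases, past the annotated end of Snrpn and towards Snhg14. Across the 14 libraries log2 abundance and log2 length had a Pearson r of -0.998 and a Spearman rho of -0.96, given as a description, since the score is itself per length.

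Abundance multiplied by transcript length, which undoes the division by length, was nearly level. It was 1002 ± 90.6 (SD, n = 3) in untreated wild types, 984 ± 60.4 (n = 3) in untreated mutants, 948 ± 98.8 (n = 5) in treated wild types and 989 ± 50.6 (n = 3) in treated mutants. The groups overlapped, and the whole range was 872 to 1110, or 1.27-fold, against 11.99-fold for abundance itself. On this scale the log2 difference by genotype was -0.02 ± 0.0938 (SE) under vehicle and 0.07 ± 0.0839 under TAK-418. For TAK-418 it was 0.01 ± 0.0938 in mutants and -0.08 ± 0.0839 in wild types, with adjusted p from 0.768 to 1 in limma. On the abundance scale the same contrasts had standard errors of 0.924 to 1.03. The authors' deposited tables gave the locus, which they join with Snurf, Snhg14 and 2 further symbols, log2 fold changes of -0.12 to 0.08.

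**Figure D3:**
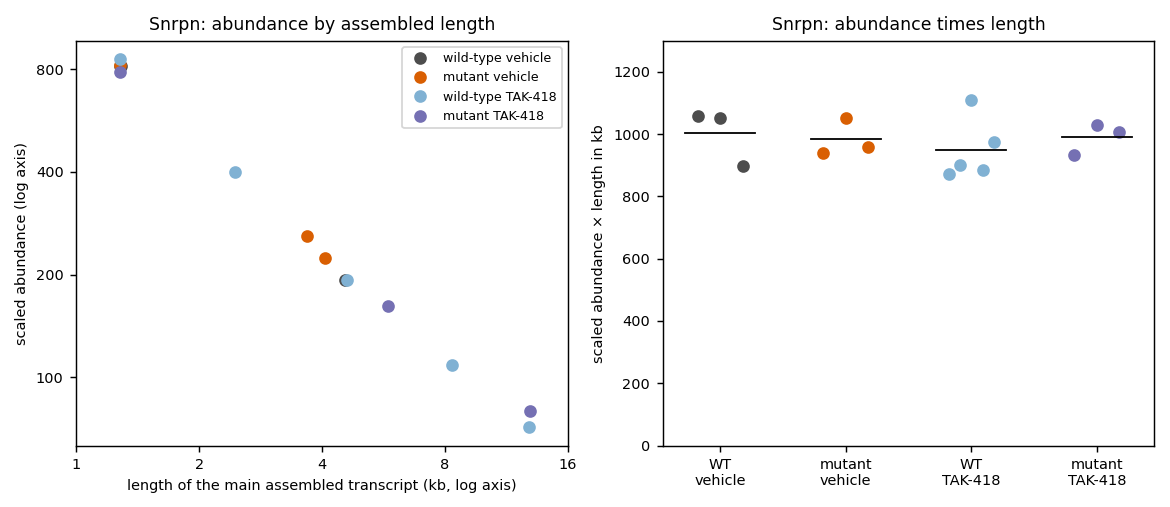
Left, scaled abundance of Snrpn (y axis) against the length of its main assembled transcript in kilobases (x axis), both on log axes, 1 point per library; right, abundance times length by group, with bars for the group means. Abundance falls along a line as the assembled transcript lengthens, while the product stays between 872 and 1110.

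Ndn (chr7:62346569-62350262, plus strand) encodes necdin, a MAGE family protein of postmitotic neurons, in a single exon. Its scaled abundance took 2 levels. It was 2.75, 2.66 and 2.57 in wild-type vehicle libraries and 2.80, 2.65 and 97.8 in mutant vehicle libraries. In wild-type TAK-418 libraries it was 2.06, 2.14, 3.40, 2.88 and 2.42, and in mutant TAK-418 libraries 86.9, 102 and 2.85. The 3 high libraries are all mutants. They are also the 3 in which the assembler had placed a spliced transcript over the same exon, and in the other 11 the Ndn transcript stood alone.

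The score differed with that arrangement across the transcriptome as well. Single-exon transcripts apart from any spliced transcript had a median of 0.0514 times the authors' FPKM (1059 values of a gene in a library), 24.6-fold below that of spliced transcripts. Single-exon transcripts that overlap a spliced one had 1.14 times (410 values). The 3 high Ndn values had a median 36.8-fold above the others. The fitted log2 differences of Ndn by genotype, 3.24 ± 1.17 under TAK-418 (adjusted p = 0.925, limma) and 2.43 ± 0.874 over both treatments (adjusted p = 0.820), join both kinds of library, and whether the difference lies in the arrangement or in the RNA was not tested beyond the values that follow. Among the 11 libraries in which it stood alone, means were 2.66 ± 0.0926 (SD, n = 3) in untreated wild types, 2.73 ± 0.105 (n = 2) in untreated mutants, 2.58 ± 0.561 (n = 5) in treated wild types and 2.85 in the 1 mutant TAK-418 library. These groups overlap or lie within the range of the wild-type TAK-418 libraries. The authors' deposited tables, made from pooled libraries, gave Ndn 53.7 to 59.3 FPKM in every group, with a largest log2 fold change of 0.13 (q-value 0.808) in mutants against wild types under TAK-418.

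**Figure D4:**
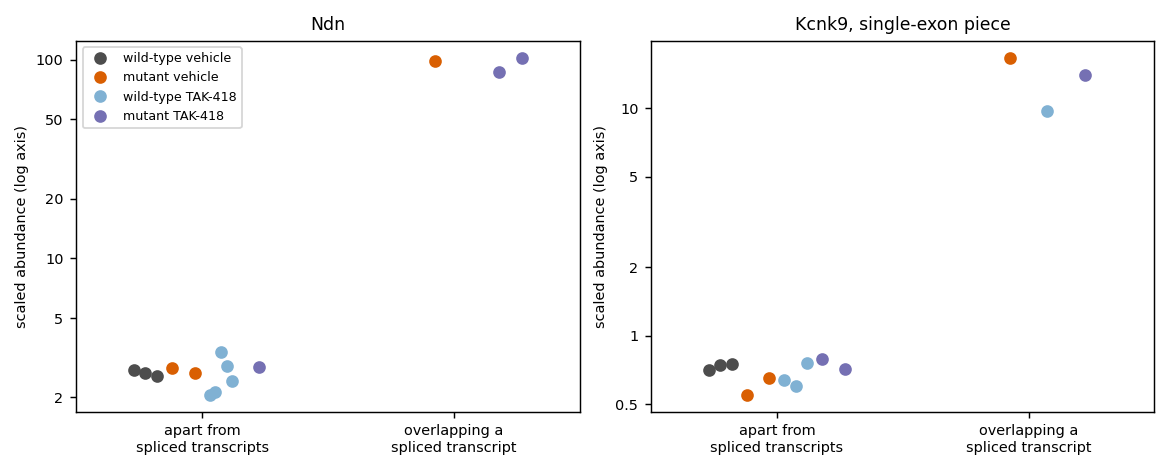
Scaled abundance (y axis, log) of Ndn and of the single-exon piece of Kcnk9 in each library, split by whether the transcript stood apart from spliced transcripts or overlapped one (x axis); colours are groups. For Ndn the 11 libraries on the left lie between 2.06 and 3.40 and the 3 on the right between 86.9 and 102.

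Ube3a (chr7:59228750-59311536, plus strand) encodes a ubiquitin ligase whose loss from the maternal copy causes Angelman syndrome. In neurons the paternal copy is silenced by a long antisense RNA, the far end of Snhg14, which starts at the Snrpn promoter and runs through Ube3a on the minus strand. Ube3a abundance was 24.0, 21.8 and 15.3 in wild-type vehicle and 19.9, 22.4 and 16.6 in mutant vehicle libraries. It was 20.2, 22.3, 21.3, 32.0 and 24.3 in wild-type TAK-418 and 26.4, 18.5 and 20.9 in mutant TAK-418 libraries. All groups overlapped. With TAK-418 in wild types the fitted difference was 0.24 ± 0.178 (log2, SE, 95% interval -0.15 to 0.63), adjusted p = 0.742 in limma. Without the pair high in choroid plexus genes it was 0.05 ± 0.188 (adjusted p = 0.945). The main assembled transcript varied from 4250 to 28920 bases in length. Unlike at Snrpn, abundance times length was spread more widely than abundance itself, from 118 to 549, and the standard error under vehicle went from 0.199 to 0.524.

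Transcripts on the opposite strand were assembled over Ube3a in every library, 6 to 25 spliced transcripts per library and 198 in all, of which 150 shared an intron with Snhg14. Strand here follows from splice sites, and no label says that the libraries keep strand, so reads in unspliced overlap could not be divided. The summed antisense abundance was 16.9, 37.7 and 23.0 in wild-type vehicle, 15.7, 34.0 and 25.9 in mutant vehicle, and 19.8, 21.7, 17.5, 31.8 and 38.7 in wild-type TAK-418 libraries. In mutant TAK-418 libraries it was 15.998, 18.8 and 14.9, the narrowest range of the groups, with the lowest library of all 14. These libraries held 25, 19 and 16 antisense transcripts, against 20, 8, 12, 15 and 11 in wild-type TAK-418 libraries. Whether the sum moves with the number or length of the assembled antisense transcripts was not tested. The antisense share of spliced abundance over the gene was 54.9% ± 11.9 (SD, n = 3) in untreated wild types, 55.1% ± 9.50 (n = 3) in untreated mutants, 51.3% ± 6.07 (n = 5) in treated wild types and 42.3% ± 5.78 (n = 3) in treated mutants.

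The 4 group comparisons of antisense abundance were chosen after these values were seen. Mutants under TAK-418 were lower than treated wild types by -0.59 in log2 (exact permutation p = 0.0714, two-sided, adjusted p = 0.286 over the 4 comparisons) and lower than untreated mutants by -0.54 (exact permutation p = 0.3, adjusted p = 0.6). With 3 against 3 libraries this test cannot go below 0.1, and with 3 against 5 not below 0.0357. The comparison of treated mutants with treated wild types reaches that smallest value, 0.0357 and unadjusted, when libraries are not scaled, with a log2 difference of -0.68. Without scaling the median log2 difference over all genes in that comparison was -0.07, against 0.00 with scaling. Mutation under vehicle (-0.03, exact permutation p = 1) and TAK-418 in wild types (0.02, exact permutation p = 1) differed by far less than the spread between libraries. Snhg14 as a whole, from its promoter end to Ube3a, was 62.3 to 115 over the 14 libraries, with 0 of 7 contrasts called. In wild types its mean was 98.8 ± 23.2 (SD, n = 3) untreated and 81.5 ± 14.4 (n = 5) treated. In mutants it was 96.2 ± 6.71 (n = 3) untreated and 98.0 ± 10.2 (n = 3) treated. Under TAK-418 the Snhg14 mean was thus higher for mutants, the other direction from the antisense sum. Libraries overlapped, at 87.4 to 108 for mutants and 62.3 to 97.4 for wild types. Why the directions differ was not tested.

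**Figure D5:**
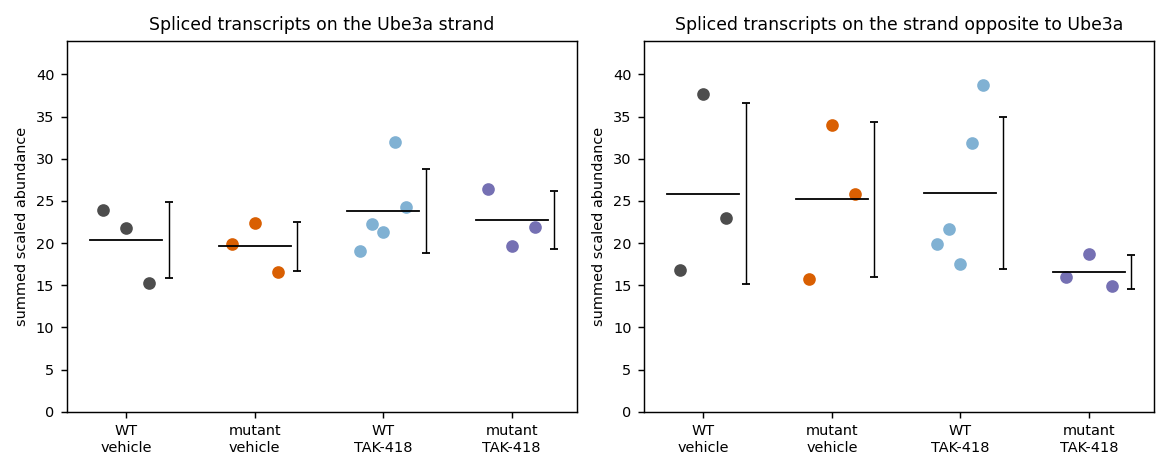
Summed scaled abundance (y axis) of spliced transcripts on the Ube3a strand (left) and on the opposite strand (right) in each library by group (x axis); bars are group means and whiskers are SD. The 3 mutant TAK-418 libraries lie between 14.9 and 18.8 on the opposite strand, and 1 of them lies below all libraries of the other groups.

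The other genes of this cluster were low or could not be separated. Snurf had no value, since it shares all its introns with Snrpn, and Magel2 had none in any library. Mkrn3 was listed in 5 libraries and Peg12 in 1. Atp10a, which some studies find imprinted, was 1.78 to 5.71.

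Peg3 (chr7:6703892-6730431, minus strand) encodes a zinc finger protein expressed from the paternal copy, best known for its part in maternal behaviour and growth. After Ndn, it showed the smallest unadjusted p of the 10 genes. Abundance was 49.1, 50.01 and 49.6 in wild-type vehicle libraries and 42.5, 45.6 and 47.6 in mutant vehicle libraries, with no overlap. Wild-type TAK-418 libraries had 49.3, 49.6, 46.6, 48.6 and 52.1, and mutant TAK-418 libraries 50.8, 47.2 and 47.1, with overlap. Under vehicle the mutants were lower by a log2 difference of -0.13 ± 0.0506 (SE, 95% interval -0.24 to -0.02, unadjusted p = 0.0248, adjusted p = 0.829, limma). With TAK-418, mutants were 0.10 ± 0.0506 higher than untreated mutants (adjusted p = 1), and the interaction was 0.10 ± 0.0678 (adjusted p = 0.976).

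The lowest of these Peg3 libraries is mutant vehicle replicate 1, of the pair high in choroid plexus genes. Without the pair the difference under vehicle was -0.09 ± 0.0581 (unadjusted p = 0.170, adjusted p = 0.998, limma). TAK-418 in mutants was then 0.05 ± 0.0530 and the interaction 0.06 ± 0.0719. The authors' deposited table gave Peg3 34.1 FPKM in wild-type vehicle and 31.2 in mutant vehicle mice, a log2 fold change of -0.13 with a q-value of 1.00. In all 14 libraries the main Peg3 transcript had 9 exons and began 31 to 45 bases after the RefSeq start. Of its neighbours, Usp29, which shares the promoter region in the other direction, was 4.25 to 6.38 and Zim1 1.16 to 3.70. Zim2 was listed in 1 library and Zfp264 in none.

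Plagl1 (chr10:13060504-13131694, plus strand) encodes a zinc finger transcription factor, also called Zac1, that restrains cell proliferation and is expressed from the paternal copy. Its imprinted promoter lies well inside the annotated gene. Of 63 assembled Plagl1 transcripts, 53 began within 250 bases of the RefSeq start at position 13090832 and 0 began further upstream, and those 53 carried 65.3% to 100% of the abundance in each library. The window around that start (chr10:13090582-13090881, plus strand) is shown because it is the start the hippocampus used, and it holds 26 CpG dinucleotides against a median of 7 over all windows. Capitals mark GCGGCA, 90 to 85 bases before the start.

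Plagl1: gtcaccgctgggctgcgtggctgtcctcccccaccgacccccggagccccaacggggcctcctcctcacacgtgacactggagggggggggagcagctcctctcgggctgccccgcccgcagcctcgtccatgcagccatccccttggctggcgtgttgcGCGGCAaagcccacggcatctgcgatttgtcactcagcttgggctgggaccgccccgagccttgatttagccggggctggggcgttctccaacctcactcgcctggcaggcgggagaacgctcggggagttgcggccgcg

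Group means of Plagl1 were higher in mutants than in wild types in both arms, with overlap and no call. Abundance was 12.7, 9.34 and 13.3 in wild-type vehicle, 13.7, 12.5 and 14.5 in mutant vehicle, and 11.9, 13.5 and 13.2 in mutant TAK-418 libraries. Wild-type TAK-418 libraries had 11.98, 6.58, 12.3, 11.8 and 12.3, where replicate 2 stands apart. The log2 difference by genotype over both treatments was 0.22 ± 0.134 (SE, 95% interval -0.07 to 0.51, adjusted p = 0.879, limma). It was 0.20 ± 0.200 under vehicle and 0.24 ± 0.179 under TAK-418, and the latter was 0.08 without that library. Without wild-type vehicle replicate 2, at 9.34, the difference under vehicle was 0.05. The difference over both treatments was 0.14 without wild-type TAK-418 replicate 2. The authors' deposited tables put Plagl1 higher in mutants in each of 4 comparisons, by 0.21 to 0.32 on the log2 scale. The lowest p-value there was 0.0204 (q-value 0.694), for untreated mutants against treated wild types, and 0 of 42 tested rows of members were called in the authors' deposited tables, where 0.224%, 0.218%, 0.324% and 0.611% of tested loci were. At an unadjusted p-value under 0.05 stood 3 member rows, Plagl1 in untreated mutants against untreated wild types (all loci 4.32%) and Plagl1 and Kcnk9 in untreated mutants against treated wild types (all loci 6.48%). There was none in treated mutants against treated (all loci 4.1%) or untreated wild types (4.49%). Those tables share their control groups, so the 4 are not separate evidence. The neighbouring gene Phactr2 was 4.74 to 8.28.

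The second cluster is the Dlk1-Dio3 region of chromosome 12, where Meg3, Rian and Mirg are long noncoding RNAs of the maternal copy. Meg3 (chr12:109541001-109571726, plus strand) starts at the region's second control element. In 12 of 14 libraries the main Meg3 transcript began within the RefSeq window at that start (chr12:109540746-109541045, plus strand, 13 CpG dinucleotides), shown for that reason. Capitals mark GCGGCA, 190 to 185 bases before the start.

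Meg3: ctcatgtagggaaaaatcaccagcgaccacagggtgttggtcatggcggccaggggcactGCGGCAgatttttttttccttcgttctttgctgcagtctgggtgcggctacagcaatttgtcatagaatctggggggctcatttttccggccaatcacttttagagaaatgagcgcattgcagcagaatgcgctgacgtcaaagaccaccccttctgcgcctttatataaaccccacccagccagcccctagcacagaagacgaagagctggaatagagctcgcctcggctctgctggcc

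Meg3 was one of the most abundant RNAs of the set. Abundance was 562, 750 and 773 in wild-type vehicle, 685, 613 and 652 in mutant vehicle, and 659, 698 and 642 in mutant TAK-418 libraries. Wild-type TAK-418 libraries had 687, 696, 525, 596 and 719, and all groups overlapped. The 7 to 18 Meg3 transcripts per library differ in length, and abundance times length was tighter. It was 6345 ± 305 (SD, n = 3) in untreated wild types, 5934 ± 313 (n = 3) in untreated mutants, 6254 ± 69.1 (n = 5) in treated wild types and 5835 ± 363 (n = 3) in treated mutants. On that scale mutants were lower over both treatments by a log2 difference of -0.10 ± 0.0389 (unadjusted p = 0.0260, adjusted p = 0.774, limma), while on the abundance scale the difference was -0.01 ± 0.0893. With abundance times length, 996 of 16580 genes had an unadjusted p under 0.05 in that contrast, among them 3 members. The authors' deposited tables gave 674 to 701 FPKM. They list Meg3 at 0 for treated wild types in 2 comparisons, with the status HIDATA, which marks an estimate that was not made, and those rows are not used here.

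Rian (chr12:109603940-109661716) hosts the region's small nucleolar RNAs. Its main transcript had 22 or 23 exons in every library. Abundance was 190, 185 and 207 in wild-type vehicle and 172, 179 and 184 in mutant vehicle libraries, which do not overlap. It was 184, 189, 183, 173 and 187 in wild-type TAK-418 and 189, 186 and 161 in mutant TAK-418 libraries, which do. The difference under vehicle was -0.12 ± 0.0645 (log2, SE, 95% interval -0.26 to 0.02, adjusted p = 0.927, limma). Its highest wild-type and lowest mutant library are the pair high in choroid plexus genes, and without them the difference was -0.05 ± 0.0752 (adjusted p = 1).

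Mirg (chr12:109729764-109749460) is the host transcript of a row of microRNAs. RefSeq places 14 hairpins with 26 mature microRNAs inside it, and these libraries measured the host RNA, not the mature forms. In every library the assembled Mirg transcripts together spanned at least 7 of the hairpins. The main Mirg transcript had 2 exons and carried 38.4% to 75.4% of the abundance. It began between positions 109745026 and 109745751, after the hairpin of miR-410, which ends at 109743795. Only the hairpin of miR-3072, from position 109747878, lies downstream of these starts. Mirg abundance is therefore not the level of RNA that spans the other hairpins. The hairpins of miR-410 and miR-3072 lay inside an assembled exon in all 14 libraries and that of miR-369 in none. Their mature sequences are shown for that contrast, with the seed (bases 2 to 8) in capitals.
mmu-miR-410-3p: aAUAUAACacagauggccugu
mmu-miR-3072-3p: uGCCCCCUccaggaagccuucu
mmu-miR-369-3p: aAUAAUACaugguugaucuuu
The 26 mature forms had 25 different seeds. The 1 shared seed, GGUUGCC, belongs to the following pair, which differ in the bases after it.
mmu-miR-453: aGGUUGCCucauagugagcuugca
mmu-miR-496a-5p: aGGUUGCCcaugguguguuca

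Mirg abundance was 14.97, 24.9 and 27.3 in wild-type vehicle and 26.7, 22.8 and 24.8 in mutant vehicle libraries. It was 26.5, 24.6, 23.3, 23.6 and 25.7 in wild-type TAK-418 and 23.1, 20.8 and 20.2 in mutant TAK-418 libraries, so treated mutants lay below treated wild types with no overlap. That difference was -0.20 ± 0.148 (log2, SE, 95% interval -0.53 to 0.12, adjusted p = 0.925, limma), and the interaction was -0.38 ± 0.221 (adjusted p = 0.976). Without wild-type vehicle replicate 1, the library at 14.97, the interaction was -0.13. With abundance times length the difference under TAK-418 was -0.01 ± 0.0617, and the groups overlapped at 56.5 to 65.5 against 58.7 to 64.6. The authors' deposited table gave 29.7 FPKM in treated wild types and 30.5 in treated mutants, the other direction, with a q-value of 0.999.

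The other genes of the region were measured beside them. Dlk1, a paternally expressed Notch-like ligand at its upstream end, was 2.86, 2.63 and 2.47 in wild-type vehicle, 1.79, 1.61 and 2.00 in mutant vehicle, and 3.93, 3.29 and 2.33 in mutant TAK-418 libraries. Untreated mutants lay below every other library. Of all genes, 4.49% were lower without overlap in mutants under vehicle, and 4.55% were higher without overlap with TAK-418 in mutants. Wild-type TAK-418 libraries ranged from 2.38 to 3.36. The log2 difference by genotype under vehicle was -0.40 ± 0.149 (adjusted p = 0.820, limma), and treated mutants were 0.58 ± 0.149 above untreated ones (unadjusted p = 0.00208, adjusted p = 0.590). Begain was 57.4 to 67.3, Dio3 at most 0.147, Rtl1 without a value, and B830012L14Rik listed in 1 library.

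Impact (chr18:12955852-12992950, plus strand) encodes a regulator that restrains the amino acid-sensing kinase GCN2 and is abundant in neurons. It was the steadiest of the 10 genes, with a coefficient of variation of 3.46% over 14 libraries and 1 assembled transcript of 11 exons in each. Abundance was 91.8, 90.8 and 89.8 in wild-type vehicle and 84.2, 90.3 and 92.4 in mutant vehicle libraries. It was 91.0, 83.9, 85.4, 92.6 and 88.4 in wild-type TAK-418 and 90.8, 93.3 and 91.6 in mutant TAK-418 libraries. All groups overlapped. The log2 difference by genotype was -0.03 ± 0.0450 under vehicle (SE, 95% interval -0.13 to 0.07, adjusted p = 1, limma) and 0.06 ± 0.0402 under TAK-418 (-0.03 to 0.15, adjusted p = 0.925). These are the tightest limits that the libraries set on any of the 10.

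Kcnk9 (chr15:72501089-72546340, minus strand) encodes TASK-3, a background potassium channel that is expressed from the maternal copy in brain and is linked to Birk-Barel syndrome. Its summed abundance was 7.9997, 8.22 and 8.20 in wild-type vehicle and 6.59, 22.8 and 8.62 in mutant vehicle libraries. It was 19.7, 12.6, 8.11, 8.91 and 9.74 in wild-type TAK-418 and 9.72, 23.1 and 7.76 in mutant TAK-418 libraries. The 3 libraries near 20 and above carry a single-exon 3' piece that overlaps a spliced transcript, at 9.71 to 16.7. In 10 others the piece stands apart, at 0.550 to 0.787, and in 1 no such piece was assembled.

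Spliced transcripts alone give a narrower picture. They were 7.40 ± 0.0997 (SD, n = 3) in untreated wild types, 6.69 ± 1.10 (n = 3) in untreated mutants, 9.45 ± 1.98 (n = 5) in treated wild types and 8.36 ± 1.145 (n = 3) in treated mutants. Means were thus higher with TAK-418 in both genotypes, with overlap between groups in mutants and, by 1 library, in wild types. Over both genotypes the log2 difference was 0.29 ± 0.107 (unadjusted p = 0.0181, adjusted p = 0.487, limma). In that contrast 1364 of 16069 genes with spliced transcripts had an unadjusted p under 0.05. By genotype the log2 difference of Kcnk9 was -0.14 ± 0.107, where summed abundance gave 0.25 ± 0.307. The authors' deposited tables list 2 loci for Kcnk9 at the same coordinates. One of them had the smallest q-value of any member in the authors' deposited tables, 0.0753 (p-value 0.0005), with 6.27 FPKM in treated wild types and 4.79 in untreated mutants, a comparison that changes genotype and drug together. The other locus had 4.66 and 4.27 FPKM in the same groups, a log2 fold change of -0.13 with a q-value of 0.937. Near Kcnk9, the noncoding Peg13 was 14.3 to 21.1, Chrac1 10.02 to 15.8 and Ago2 11.2 to 14.9. Trappc9, which holds Peg13 in an intron, ran from 26.1 to 153 within groups as well as between them.

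Members of a cluster did not rise and fall together beyond the tests. Of 45 pairs of members over the 14 libraries, 0 passed an adjusted permutation p of 0.05 for Pearson's r or Spearman's rho, while 1 and 5 did so unadjusted. Meg3 and Mirg had r = 0.57 (permutation p = 0.0347, adjusted p = 0.789) and rho = 0.61 (permutation p = 0.0231, adjusted p = 0.347), and r = 0.50 without the 2 libraries farthest from the median of Meg3. Meg3 and Rian had r = 0.34 (permutation p = 0.233, adjusted p = 0.789) and rho = 0.45 (permutation p = 0.114, adjusted p = 0.465), and r = 0.66 without the 2. Rian and Mirg had r = 0.15 (permutation p = 0.565, adjusted p = 0.970) and rho = 0.09 (permutation p = 0.771, adjusted p = 0.897), and r = -0.38 without the 2. In the chromosome 7 cluster, Snrpn with Ube3a had r = 0.15 (permutation p = 0.625, adjusted p = 0.970) and rho = 0.23 (permutation p = 0.439, adjusted p = 0.690), and r = 0.15 without the 2. Snrpn with Ndn (r = -0.36, permutation p = 0.205, adjusted p = 0.789, rho = 0.09, permutation p = 0.751, adjusted p = 0.897, r = -0.31 without the 2) and Ndn with Ube3a (r = -0.20, permutation p = 0.480, adjusted p = 0.970, rho = -0.10, permutation p = 0.739, adjusted p = 0.897, r = 0.32 without the 2) include the values that moved with the assembled structure. No assembled transcript had exons in 2 members of a cluster.

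Among 13274 genes with a value in all 14 libraries, those whose log2 values were most like a member's are given as a description, since the best of so many genes over 14 libraries is high by selection. For Peg3 they were Ipcef1, Cep97 and Akap6 (Pearson r 0.87 for each), and for Impact they included Pde1a (0.89) and Vezt (0.88). For Meg3 they were Ankrd24, Ano4 and Gdpgp1 (0.84 to 0.88), for Rian Ttc39aos1, Tmem255b and Tecpr2 (0.87 to 0.90) and for Mirg Dpp9, Zfp703 and Phc3 (0.88 for each). Plagl1 was closest to Wtap, Mterf2 and Flvcr1 (0.86 to 0.87) and Ube3a to Cop1, Ptprj and Casr (0.78 to 0.81). The closest genes to Snrpn were Psmd8, Inpp5a and Rps15 (0.85 to 0.92), to Ndn Htt, Iqce and Ciz1 (0.79 to 0.83) and to Kcnk9 Radil, Med6 and Sumo3 (0.81 to 0.83), 3 members whose values moved with the assembled structure. No member was among another member's 3 closest genes.

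Of 69 other imprinted genes listed for comparison, 63 had a value, 40 of them in all 14 libraries, and 56 were tested. None was called in any of the 7 contrasts (limma). At an unadjusted p under 0.05, 4 of 56 differed by genotype under vehicle (all genes 5.48%), 2 by genotype under TAK-418 (4.95%), 4 with TAK-418 in mutants (4.4%), 5 with TAK-418 in wild types (8.42%) and 9 with TAK-418 over both genotypes (8.29%). The interaction gave 4 (4.43%) and genotype over both treatments 3 (5.85%). Of the 56, 27 were higher by genotype under vehicle, 27 by genotype under TAK-418, 34 with TAK-418 in mutants, 32 with TAK-418 in wild types and 29 in the interaction. Over both arms, 30 were higher by genotype and 32 with TAK-418. Medians lay between -0.01 and 0.06, beside 0.00 over all genes.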

How the data were processed

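RNA of mouse hippocampus was sequenced in 14 libraries, per the labels. The submitters' processing notes name TopHat2 2.1.0, FastQC and the mm10 build, and transcripts were assembled with CLASS 2.1.7, per the file headers. Each transcript carries a deposited abundance score whose unit is not given in the sources used here. The authors also deposited 4 comparison tables in the layout of Cuffdiff, which give each locus 1 FPKM value per group, a log2 fold change, a p-value and a q-value. The order of the groups in them was checked against the libraries.

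Transcripts were assigned to GENCODE M21 genes (GRCm38) by the most shared introns, or, if unspliced, by at least 50% overlap with exons. Scores were summed per gene and scaled by the median of ratios over 13274 genes with a value in all libraries. Genes valued in 3 or more libraries, 16580 in all, were fitted on log2(value + 0.878), where the pseudocount is the 10th percentile of values above 0, in limma 3.58.1 (R 4.3.3) with 4 group means and a trend, 10 residual degrees of freedom and Benjamini-Hochberg adjustment over all genes. A fold change on this scale understates that of low genes. The fit was tested on simulated data. Depth is relative: abundance times length fell within 0.1 of whole multiples of a step for 82.0% to 100% of the lowest single-exon transcripts apart from spliced ones, checked in each library. Sequences are from RefSeq tables on GRCm38.p6. The labels name more than 1 library kit without saying which library used which.

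The members and gene lists were chosen with earlier results of these data known. All 10 members are named. Other genes named are listed imprinted genes in the members' clusters, the 5 of highest abundance, any past adjusted p 0.05, the 3 genes most like each member (1 of those for Impact is not reported here), and checks of the libraries (Kmt2d, Xist, Y-linked genes and marker lists). Other marker lists (thalamus and habenula, hypothalamus, interneurons, astrocytes, oligodendrocytes, microglia and endothelial cells) reached highest summed levels of 80.9, 26.7, 694, 645, 5445, 186 and 69.0, and Hcrt, Sim1, Otp, Gbx2 and Gpr151 had no value.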

Additional observations from a re-analysis of the deposited data

Results flagged for a closer look

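For Plagl1, replicate 2 of the treated wild types lay far from the other 4 libraries of its group. Its scaled abundance was 6.58, while the others lay between 11.8 and 12.3. Abundance times length showed the same library apart, at 33.2 against 57.3 to 62.9. In that group of 5 libraries 20 measures (10 genes on 2 scales) were screened, and chance flags about 1 in 20. All 3 Plagl1 transcripts of that library began within 250 bases of the RefSeq start, and its relative depth was 1.10 times the median.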

How the results depend on the processing

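No member was called at an adjusted p of 0.05 (limma) under any alternative. These covered the pseudocount, scaling, the filter on low values, the assignment of transcripts, the scale of the score, the groups in the fit, sex, the pair of libraries high in choroid plexus genes, and each library left out in turn. With abundance times length, Rian and Impact had an unadjusted p under 0.05 (limma) with TAK-418 in wild types, as did 1525 of 16580 genes. Rian and Mirg did so with TAK-418 over both genotypes, as did 1349 of 16580 genes. The antisense comparisons and their alternatives were chosen after seeing the data. No paired analysis was possible because the labels give no replicate numbers. Of 38 results on members and the antisense transcripts, 18 changed sign under some alternative, and the cause was not tested. The values that follow are log2 differences, where "both" means over both treatments or both genotypes.

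With abundance times length, genotype under vehicle became 0.16 for Ube3a. Genotype over both became 0.021 for Snrpn, 0.018 for Mirg, 0.11 for Ube3a and -0.082 for Kcnk9, and TAK-418 over both became 0.10 for Mirg and -0.033 for Impact. With spliced transcripts alone, Kcnk9 was -0.14 by genotype under vehicle and -0.14 over both. With the highest transcript alone, genotype over both was 0.10 for Meg3 and 0.10 for Mirg, TAK-418 over both 0.44 for Meg3 and 0.24 for Mirg, and the Mirg interaction 0.051. Assignment by exon overlap gave -0.45 for Ube3a with TAK-418 over both. That assignment did not use the strand of a transcript, so transcripts antisense to Ube3a could be counted with it. Without scaling, Impact was -0.076 by genotype over both and Mirg 0.0102 with TAK-418 over both. Upper quartile scaling gave Mirg 0.00046 with TAK-418 over both. With sex in the fit, Meg3 was 0.0060 by genotype and Impact -0.00197 with TAK-418 over both.

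Without the pair high in choroid plexus genes, genotype under vehicle was 0.00026 for Impact and 0.23 for antisense Ube3a, and antisense Ube3a was -0.027 with TAK-418 in wild types. Genotype over both was then 0.0090 for Meg3 and 0.0402 for Mirg, and TAK-418 over both 0.027 for Meg3, 0.096 for Mirg and -0.0201 for Impact.

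Leaving out 1 library at a time, genotype under vehicle ran from -0.23 to 0.00024 for Meg3, -0.075 to 0.34 for Mirg, -0.22 to 0.091 for Ube3a, -0.058 to 0.0082 for Impact, -0.10 to 0.73 for Kcnk9 and -0.29 to 0.29 for antisense Ube3a. The ends came from wild-type vehicle replicates 1 and 3 for Meg3, Mirg and Ube3a. Genotype over both ran from -0.71 to 0.11 for Snrpn, -0.086 to 0.028 for Meg3 and -0.14 to 0.068 for Mirg. TAK-418 over both ran from -0.11 to 0.0079 for Meg3, -0.14 to 0.068 for Mirg and -0.016 to 0.017 for Impact, and antisense Ube3a with TAK-418 in wild types from -0.25 to 0.33.

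Counts of calls over all genes stayed small, between 0 and 17 over all contrasts and alternatives. For TAK-418 in mutants 1 gene was called, against 17 when the fit held only the groups compared and 8 without mutant vehicle replicate 1. For TAK-418 over both genotypes 2 were called, against 12 with abundance times length. Groups of 3 to 5 libraries, the score of single-exon transcripts and the length and choice of assembled transcripts all limit these values, and their shares were not compared.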

Other observations

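The 5 most abundant of the other imprinted genes were Gnas, Nnat, Rasgrf1, Nap1l5 and Cd81. Gnas, which encodes the stimulatory G protein alpha subunit, was 430 to 746, and with TAK-418 over both genotypes it was lower by a log2 difference of -0.35 ± 0.123 (unadjusted p = 0.0154, adjusted p = 0.496, limma), with overlap between groups. Rasgrf1, a guanine nucleotide exchange factor of synapses, was 162 to 205 and higher with TAK-418 by 0.11 ± 0.0403 (unadjusted p = 0.0202, adjusted p = 0.518, limma). Nap1l5, a nucleosome assembly protein, was 126 to 181, with a difference of 0.04 ± 0.0722. Nnat, a small membrane protein of developing brain, was 65.2 to 84.9 in 5 libraries and 257 to 314 in the other 9. Cd81, a tetraspanin, was 84.3 to 90.2 in 8 libraries and 200 to 255 in the other 6. The last pair of genes split into separate levels within groups, as Snrpn and Kcnk9 did, and whether the length of their assembled transcripts moves with these levels was not tested.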
